A study of Mus musculus with 6 samples.

Results

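The genes described here encode the collagens, the laminins and the integrins, measured in villi of mouse pups with and without *Trpm7* in the intestinal epithelium. They were taken by gene symbol from the array's annotation, each represented by the probe set that carries its symbol alone and has the highest average signal. This gave 81 genes of 19938 genes with such a probe set, namely 44 collagens, 10 laminins and 27 integrins. The rule used no measured difference between the groups. *Col21a1* and *Lamb4* had no probe set of their own, and 4 symbols of other proteins with similar names (*Itgb1bp1*, *Itgb1bp2*, *Itgb3bp* and *Itgbl1*) were left out. *Col6a5*, *Col6a6* and *Itgad* had more than 1 such probe set. The mutant group (*Trpm7*-intestine KO) was *Trpm7* fl/fl;*Villin1-Cre* and the control group *Trpm7* fl/fl without Cre, with 3 arrays in each group, all from littermates at 5 days of age. Both groups carried the floxed allele. Cre was driven by the *Villin1* promoter, which is active in enterocytes, so the fibroblasts, vessels and leukocytes inside a villus were not the cells targeted. The labels give the background as C57BL/6, whereas the study's methods name C57BL/6J for the Cre animals and another inbred strain for the floxed animals. The study counts the arrays of a group as littermates and does not mention pooling, and the labels do not tie an array to a single pup. The p-values measure the spread between these samples.

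Laminins are trimers of an alpha, a beta and a gamma chain that polymerise into the sheet on which epithelium rests, the basement membrane, together with type IV collagen. Integrins are dimers of an alpha and a beta chain that span the plasma membrane, bind matrix proteins outside the cell and the cytoskeleton inside it, and so hold the enterocyte to that sheet. Fibrillar and type VI collagens fill the core of the villus and are made mainly by its fibroblasts and muscle cells. In the intestine, epithelial laminin chains and laminin-binding integrins are known to change along the axis between crypt and villus tip.

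The proximal promoters of 4 genes are shown first, chosen by their calls among members that had a promoter entry. *Itga6*, *Itgb4* and *Lama3* had none. *Lamb3*, *Itgb6* and *Itga2* were the 3 largest rises that kept their call in every other fit that used all control arrays or all but 1, and had an entry in the promoter table, and *Itgb1*, which fell, encodes the beta chain that pairs with the *Itga2* chain. The 250 bases before the most upstream RefSeq start are printed 5′ to 3′ on the gene's strand (RefSeq, GRCm38.p6), at chr1:193301744-193301993 (plus strand) for *Lamb3*, chr2:60722604-60722853 (minus strand) for *Itgb6*, chr13:114932101-114932350 (minus strand) for *Itga2* and chr8:128685404-128685653 (plus strand) for *Itgb1*. Capitals mark the motifs found.
Lamb3: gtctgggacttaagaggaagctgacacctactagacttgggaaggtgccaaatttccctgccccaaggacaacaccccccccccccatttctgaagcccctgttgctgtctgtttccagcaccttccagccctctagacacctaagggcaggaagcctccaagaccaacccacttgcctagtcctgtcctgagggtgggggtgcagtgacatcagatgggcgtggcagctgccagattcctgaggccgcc
Itgb6: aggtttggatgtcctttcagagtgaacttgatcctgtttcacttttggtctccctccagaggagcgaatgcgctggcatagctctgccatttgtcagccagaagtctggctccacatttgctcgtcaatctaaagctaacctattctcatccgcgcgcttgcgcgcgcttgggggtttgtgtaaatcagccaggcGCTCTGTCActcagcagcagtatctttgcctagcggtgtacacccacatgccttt
Itga2: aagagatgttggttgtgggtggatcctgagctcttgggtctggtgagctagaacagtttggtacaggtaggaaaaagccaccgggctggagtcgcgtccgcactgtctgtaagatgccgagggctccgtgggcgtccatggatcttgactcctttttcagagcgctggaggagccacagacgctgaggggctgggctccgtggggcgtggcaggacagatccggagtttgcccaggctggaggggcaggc
Itgb1: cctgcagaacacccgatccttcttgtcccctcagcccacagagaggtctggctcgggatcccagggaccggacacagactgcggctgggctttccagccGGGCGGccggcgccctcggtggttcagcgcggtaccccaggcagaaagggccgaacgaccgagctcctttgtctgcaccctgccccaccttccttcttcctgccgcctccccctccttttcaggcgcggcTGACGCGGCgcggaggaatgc
4 motifs were searched on both strands, namely the AP-1 site TGANTCA, which reads the same on either strand, the antioxidant response element TGACNNNGC, which can overlap an AP-1 site, the GC box GGGCGG and the TATA box TATAAA. In *Itgb6* the capitals are an antioxidant response element on the opposite strand, from base 55 to base 47 before the start. In *Itgb1* they are an antioxidant response element from base 21 to base 13 and a GC box from base 151 to base 146, both on the gene's strand. None of the 4 motifs was found in these windows of *Lamb3* and *Itga2*. Over the 59 of 81 members with an entry, AP-1 sites were found in 2 (3.39%, against 6.85% of all 27025 promoters), antioxidant response elements in 8 (13.6%, against 10.1%), GC boxes in 29 (49.2%, against 33.0%) and TATA boxes in 5 (8.47%, against 13.0%). Among members that rose, 7 of 11 had an entry, of which 1 held an AP-1 site, 1 an antioxidant response element and 2 a GC box. Among members that fell, 3 of 5 had an entry, of which none held an AP-1 site, 1 an antioxidant response element and 2 a GC box. A match describes the letters of a window and does not show a bound site.

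The arrays had nearly equal distributions of log2 signal, with medians of 6.30 on each mutant array and 6.24 to 6.26 on the control arrays. *Trpm7* itself had log2 signals of 8.03, 7.79 and 7.88 in mutant villi, against 9.11, 8.96 and 9.03 in control villi, a change of -1.13 ± 0.09 (SE, adjusted p = 1.90e-04 by limma). The sources do not say whether its probe set lies in the deleted part. The label gives the sex as unknown. *Xist* had log2 signals of 10.18, 4.76 and 5.26 in mutant villi and 10.48, 9.82 and 9.66 in control villi, while the Y-linked *Eif2s3y* had 3.56, 8.38 and 8.50 in mutant villi and 3.63, 7.71 and 7.84 in control villi. Control replicates 2 and 3 therefore held transcripts of both kinds, and results are also given against control replicate 1 alone. That array had the lowest limma array weight of all (0.568, against 1.67 and 1.14 for control replicates 2 and 3). It had high *Xist* and low *Eif2s3y*, unlike mutant replicates 2 and 3, so this comparison is not balanced for these transcripts either. None of the 7 epithelial markers had a mean under the median of all probe sets, and in mutant villi 5 of 7 rose while *Cdx2* fell. Their summed linear signal, in which the brightest probe sets weigh most, was 31677 to 35214 in mutant villi and 22162 to 23371 in control villi. Of the other markers, 2 of 8 rose and 1 fell for fibroblasts, none of 6 was called for smooth muscle, and 2 of 7 fell for endothelium. A further 1 of 7 fell for leukocytes, 5 of 6 rose for neutrophils, 1 of 4 fell for platelets and 1 of 5 fell for glia and neurons. Over all genes 9.39% rose and 10.1% fell by the test described below. In such bulk samples fewer cells of a type and less RNA per cell cannot be told apart.

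In *Trpm7*-intestine KO villi, 11 of the 81 members rose, 5 fell and 65 did not pass the test, which was limma on all 30177 probe sets with a Benjamini-Hochberg adjusted p of 0.05 or less. The members that rose were the laminin chains *Lamb3*, *Lama1* and *Lamc1*, the integrin chains *Itgb6*, *Itga6*, *Itgam*, *Itgb4*, *Itga2* and *Itgav*, and the collagens *Col6a1* and *Col18a1*. Those that fell were *Itga8*, *Lama3*, *Lama4*, *Itgb1* and *Col8a1*. The changes were moderate, between -0.93 (*Itga8*) and 0.98 (*Lamb3*) on the log2 scale, and no member both passed the test and reached a 2-fold change. Against control replicate 1 alone, *Lamb3*, *Itga6*, *Itgb4*, *Col6a1* and *Lama3* kept their call, while the other 11 did not, with adjusted p from 0.0599 (*Itga2*) to 0.235 (*Col8a1*) by limma.

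Over all genes, 9.39% rose and 10.1% fell by the same test (8.04% and 8.82% of all probe sets), against 13.6% and 6.17% of the members. The 3 mutant arrays did not overlap with the 3 control arrays for 28 members (34.6%), 20 of them higher and 8 lower in mutant villi, and this held for 37.5% of all genes. The median change was 0.08 over members and 0.00 over all genes, and the median absolute change was 0.14 for both. The shares for the whole list thus lay near those of all genes. They were unequal between the families, with 2 of 44 collagens rising and 1 falling, 3 of 10 laminins rising and 2 falling, and 6 of 27 integrins rising and 2 falling. The median absolute change was 0.09 for collagens, 0.40 for laminins and 0.15 for integrins. A mean signal under 6.28, the median over all probe sets, was found for 13 collagens, 1 laminin and 12 integrins, where small changes are hard to measure.

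**Figure D1:**
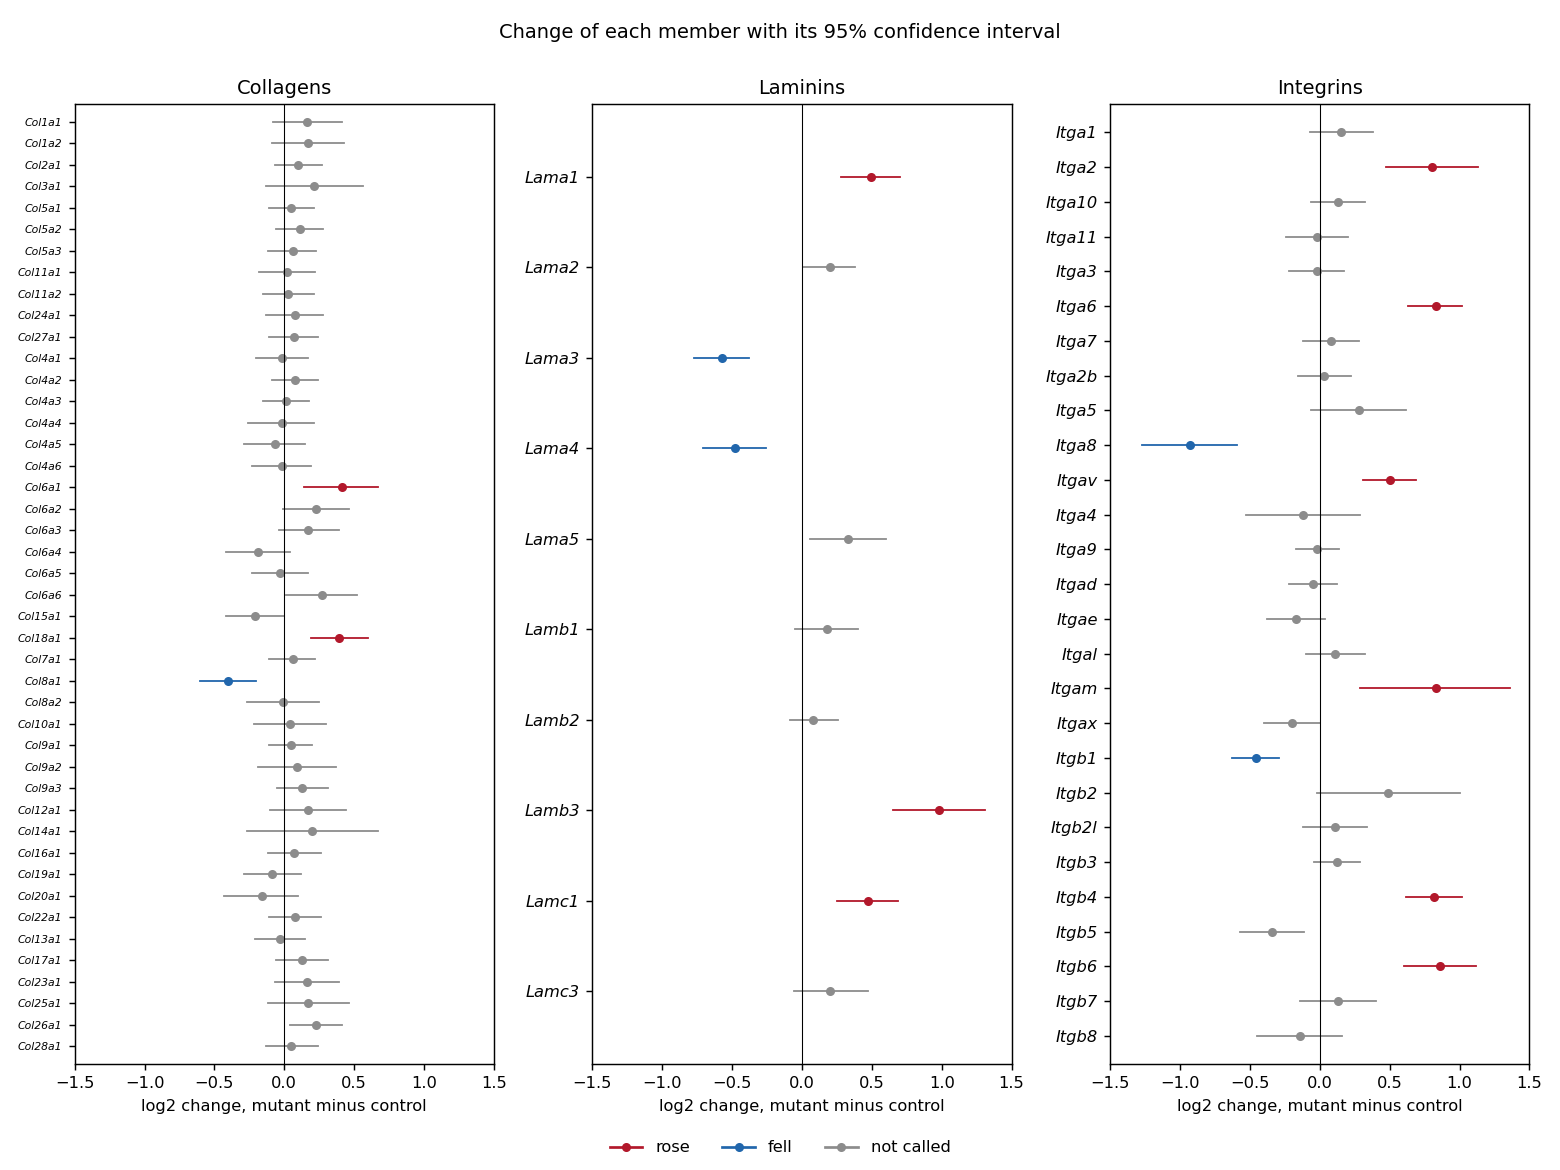
Log2 change of each of the 81 members, mutant minus control, with the 95% confidence interval from the fit across all probe sets (n = 3 arrays per group), in red where a member rose, in blue where it fell and in grey where it was not called. Collagens lie between -0.40 (Col8a1) and 0.41 (Col6a1), and only Col6a1, Col18a1 and Col8a1 were called. Laminin and integrin chains spread from -0.93 (Itga8) to 0.98 (Lamb3).

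Among the laminins, *Lama3* and *Lamb3*, chains of the same epithelial laminin, moved in opposite directions. This laminin anchors epithelium and is the ligand of the integrin that sits in hemidesmosomes. *Lamb3* had log2 signals of 7.03, 7.34 and 7.00 in mutant villi, against 5.86, 6.31 and 6.25 in control villi. All 3 mutant arrays were higher than any control array, and control replicate 1 was the lowest. The change was 0.98 ± 0.14 (SE, 1.98-fold), the largest among the members (adjusted p = 0.00299 by limma). *Lama3*, the alpha chain, had 7.58, 7.42 and 7.51 in mutant villi, against 8.20, 8.0 and 8.03 in control villi. All mutant arrays were lower, with a change of -0.57 ± 0.09 (SE, adjusted p = 0.00344 by limma). Both calls held in each other fit run, including control replicate 1 as the sole control.

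Chains of the more widespread laminins rose or did not pass the test, apart from a vascular chain. *Lamc1*, the gamma chain shared by most laminins, had 9.04, 8.95 and 9.23 in mutant villi and 8.50, 8.65 and 8.66 in control villi. Its change was 0.47 ± 0.10 (SE, adjusted p = 0.013 by limma), with no overlap between the groups. *Lama1*, an alpha chain abundant in early basement membranes, had 6.44, 6.66 and 6.70 in mutant villi and 6.18, 6.09 and 6.06 in control villi, also without overlap. It rose by 0.49 ± 0.09 (SE, adjusted p = 0.00888 by limma). *Lama5*, the main alpha chain under mature epithelium, was higher on every mutant array, with 7.36, 7.43 and 7.51 against 6.85, 7.29 and 7.16 in control villi, but did not pass the test (0.33, 95% interval 0.06 to 0.60, adjusted p = 0.0986). The beta chains that pair with these alpha chains, *Lamb1* and *Lamb2*, had changes of 0.18 (-0.05 to 0.40) and 0.08 (-0.09 to 0.26), and *Lamc3* 0.20 (-0.06 to 0.47). *Lama2*, the alpha chain of muscle, was higher on every mutant array with 0.20 (0.01 to 0.38) and was not called.

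*Lama4*, an alpha chain of blood vessel and muscle basement membranes, had 7.01, 6.99 and 7.22 in mutant villi, against 7.43, 7.66 and 7.58 in control villi. It fell by 0.48 on the log2 scale (SE 0.10, adjusted p = 0.0122 by limma), without overlap between the groups. Without mutant replicate 2 the change was -0.44 and the adjusted p 0.0504. The endothelial markers *Tek*, an angiopoietin receptor, and *Emcn*, a sialomucin of vessels, fell on the same arrays by 0.81 and 0.53. The other 5 of 7 endothelial markers, *Pecam1* and *Cdh5* among them, were not called, and the summed signal of the 7 was 1364 to 1670 in mutant villi and 1712 to 1854 in control villi. Their part in the fall of *Lama4* was not tested.

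**Figure D2:**
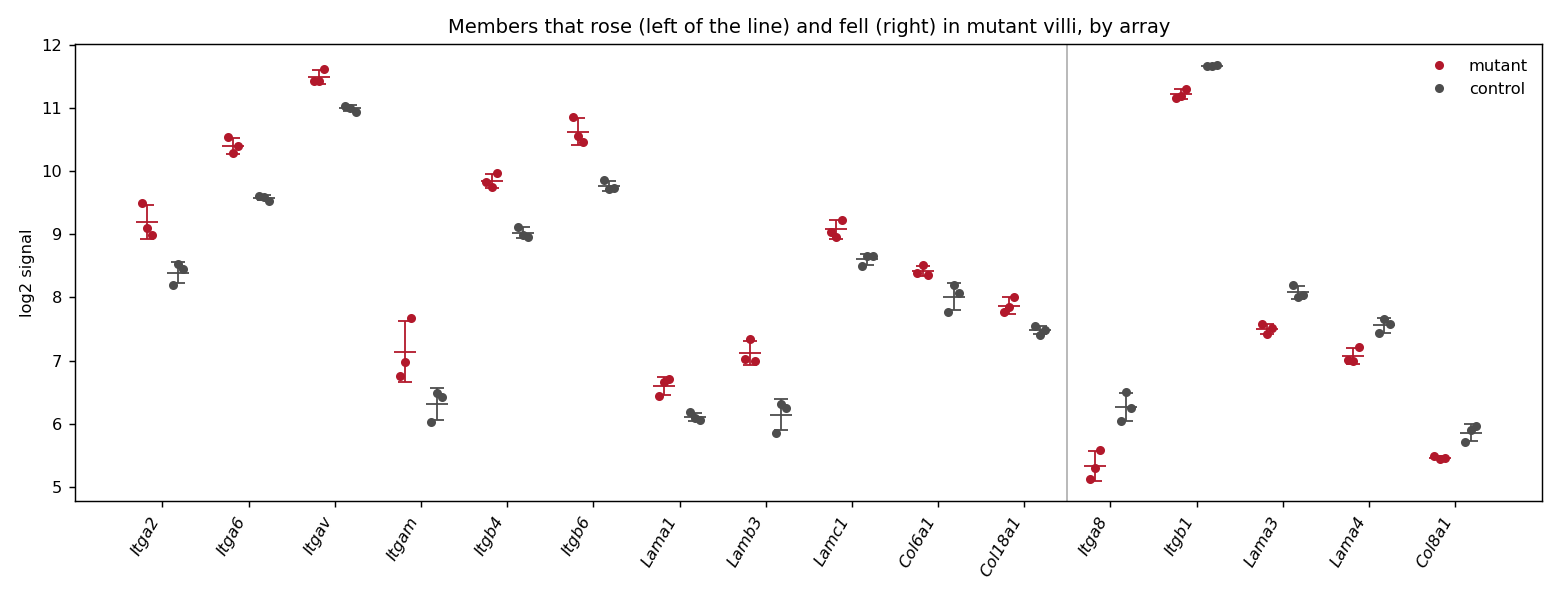
Log2 signal of the 16 members that passed the test, on each of 3 mutant (red, left) and 3 control (grey, right) arrays, with the mean (horizontal tick) and SD (bars), rises left of the vertical line and falls right of it. In none of the 16 do the groups overlap, and Itgam has the widest spread among mutant arrays.

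The integrin of hemidesmosomes is the dimer of the *Itga6* and *Itgb4* chains, which links laminin to keratin filaments. Both of its chains rose, by nearly the same amount. *Itga6* had 10.53, 10.28 and 10.39 in mutant villi, against 9.61, 9.58 and 9.53 in control villi. *Itgb4* had 9.82, 9.75 and 9.96 in mutant villi, against 9.12, 8.99 and 8.96 in control villi. For both genes the groups were far apart compared with the spread inside them. The changes were 0.83 ± 0.08 for *Itga6* (adjusted p = 6.41e-04 by limma) and 0.82 ± 0.09 for *Itgb4* (SE, adjusted p = 7.02e-04). Both calls held in each other fit run, including control replicate 1 as the sole control.

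The other laminin-binding alpha chains did not follow. *Itga3*, which pairs with the *Itgb1* chain in epithelium, had 10.94, 10.72 and 10.90 in mutant villi and 10.94, 10.84 and 10.85 in control villi. The groups overlapped, and the change of -0.02 had a 95% interval of -0.22 to 0.17. *Itgb1* itself, the beta chain shared by most matrix-binding integrins, fell. It had 11.15, 11.18 and 11.30 in mutant villi, against 11.66, 11.66 and 11.68 in control villi. The control arrays were nearly equal and all above the mutant arrays, with a change of -0.46 ± 0.07 (SE, adjusted p = 0.00474 by limma). *Itga7*, known mainly from muscle, was not called.

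Collagen-binding integrins pair 4 alpha chains with the *Itgb1* chain, and 1 of the 4 rose. *Itga2*, the collagen receptor of epithelial cells and platelets, had 9.49, 9.10 and 8.98 in mutant villi, against 8.20, 8.52 and 8.45 in control villi. The groups did not overlap, and mutant replicate 1 was the highest and control replicate 1 the lowest of the 6 arrays. It rose by 0.80 ± 0.14 (SE, adjusted p = 0.0081 by limma). *Itga1*, which lies next to *Itga2* on chromosome 13 and is the collagen receptor of stromal and smooth muscle cells, was not called (0.15, -0.07 to 0.38), nor were *Itga10* and *Itga11*. Of 4 platelet markers *Gp9* fell by 0.65, while *Pf4* (0.51, 0.04 to 0.98), *Treml1* (0.20) and *Ppbp* (0.18) were not called. Their part in the rise of *Itga2* was not tested.

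Several of the integrins that bind the RGD motif of fibronectin, vitronectin and latent TGF-beta share the *Itgav* chain. *Itgav* had 11.43, 11.42 and 11.62 in mutant villi, against 11.03, 11.00 and 10.94 in control villi, a rise of 0.50 ± 0.08 (SE, adjusted p = 0.00529 by limma). Its epithelial partner *Itgb6*, which with *Itgav* activates latent TGF-beta, had 10.86, 10.55 and 10.46 in mutant villi, against 9.86, 9.71 and 9.73 in control villi. Both genes were higher on every mutant array. The rise of *Itgb6* was 0.86 ± 0.11 (SE, 1.81-fold, adjusted p = 0.00198 by limma). Its promoter is 1 of 8 member promoters with an antioxidant response element (13.6% of 59, against 10.1% of all promoters). The promoter of *Itgb1*, which fell, is another. *Itgb5*, a partner of *Itgav* that binds vitronectin, had 10.44, 10.34 and 10.60 in mutant villi, against 10.94, 10.76 and 10.70 in control villi. All mutant arrays were lower, but the change of -0.34 (-0.57 to -0.11) fell just short of the threshold (adjusted p = 0.0523 by limma) and passed it in 6 other fits, among them leaving out mutant replicate 3 (-0.41, adjusted p = 0.0396). *Itgb3* and *Itgb8*, further partners of *Itgav*, were not called.

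*Itga8*, an RGD-binding alpha chain of smooth muscle and other mesenchymal cells, had 5.12, 5.30 and 5.59 in mutant villi, against 6.05, 6.50 and 6.25 in control villi. It was lower on every mutant array and fell by 0.93 on the log2 scale (SE 0.15, 1.91-fold), the largest fall among the members (adjusted p = 0.00479 by limma). Its signal was under the median of all probe sets. None of the 6 smooth muscle markers was called beside it, and their summed signal was 1149 to 1497 in mutant villi and 1072 to 1437 in control villi. Among the 8 fibroblast markers *Tcf21*, a transcription factor of mesenchymal cells, fell by 0.38, while *Pdgfra* and *Vim* rose by 0.56 and 0.34. These 3 calls were each lost when single arrays were left out, without mutant replicate 2 for *Pdgfra* (adjusted p = 0.0637), without control replicate 3 for *Tcf21* (0.0509) and without any single array other than mutant replicate 1 for *Vim* (0.0729 to 0.115). *Itga5*, the fibronectin receptor chain, was not called (0.28, -0.06 to 0.62).

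**Figure D3:**
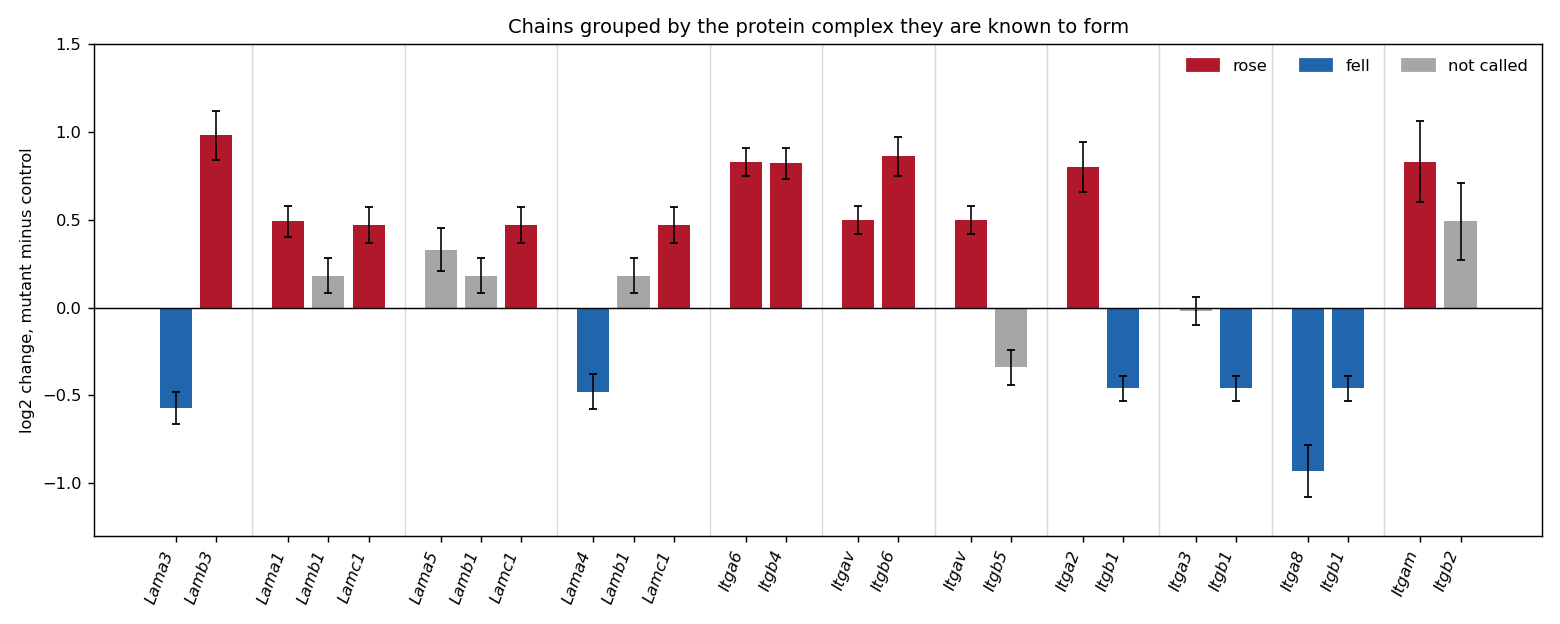
Log2 change, mutant minus control, of laminin and integrin chains, grouped by complexes that they are known to form, with bars from 0 and SE as error bars (n = 3 arrays per group), red where a chain rose, blue where it fell and grey where it was not called. The chains of the pairs Itga6 with Itgb4 and Itgav with Itgb6 rose together, while Lamb3 with Lama3 and Itga2 with Itgb1 moved in opposite directions.

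Chains that form one complex were called in opposite directions for *Lamb3* with *Lama3* and *Itga2* with *Itgb1*. As a description of pairs chosen after their values were seen, the log2 difference *Lamb3* minus *Lama3* was 1.56 higher in mutant than in control villi and *Itga2* minus *Itgb1* 1.26 higher. Between alternative chains of different dimers, *Itgb4* minus *Itgb1* was 1.28 higher, *Itgb6* minus *Itgb5* 1.20 higher and *Itga6* minus *Itga3* 0.85 higher, although *Itgb5* and *Itga3* were not called. For each of these pairs the mutant and control arrays did not overlap. Except for *Itga6* minus *Itga3*, this follows from the single chains, of which one was higher and the other lower on every mutant array. 5 of 7 epithelial markers rose beside the integrin chains of epithelium. Among them were *Krt20*, a keratin of differentiated enterocytes, and the keratins *Krt8* and *Krt18*, by 1.37, 0.79 and 0.61. Of the others *Cdx2* fell by 0.40 and *Vil1* was not called (0.24, 0.03 to 0.45). The calls of *Krt20* and *Krt8* held whichever single array was left out. Those of *Krt18*, *Epcam*, *Cdh1* and *Cdx2* did not (adjusted p from 0.0521 to 0.129 by limma). The part of these 7 markers in the rises of *Lamb3*, *Itga6*, *Itgb4*, *Itgb6*, *Itga2* and *Itgav* was not tested.

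Among leukocyte integrins only *Itgam*, the alpha chain of the complement receptor of neutrophils and macrophages, was called. It had 6.76, 6.98 and 7.68 in mutant villi, against 6.03, 6.49 and 6.42 in control villi, with mutant replicate 3 far above the other arrays. A further 3 probe sets carry *Itgam* together with other symbols and were not used. The rise of 0.83 ± 0.23 (SE) was close to the threshold (adjusted p = 0.0453 by limma). It lost its call without mutant replicate 2 (adjusted p = 0.0872), without mutant replicate 3 (0.56, adjusted p = 0.0572) and without control replicates 1, 2 or 3 (0.127, 0.0749 and 0.0921), among 10 other fits in all. Its beta chain *Itgb2*, shared by all leukocyte integrins of this class, had 6.61, 6.64 and 7.31 in mutant villi and 6.01, 6.44 and 6.64 in control villi. The groups overlapped, and it was not called (0.49, -0.02 to 1.00, adjusted p = 0.185), but with the replicate number as a block it was (0.49, adjusted p = 0.0331 by limma).

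Of 6 neutrophil markers 5 rose, each highest on the same array, led by the calprotectin genes *S100a9* and *S100a8* (3.46 and 3.31) and the collagenase *Mmp8* (2.11), and 4 of the 6 had a mean signal under the median of all probe sets. *Ly6g*, a surface protein of neutrophils, was instead highest in mutant replicate 1, with 6.70, 4.45 and 4.77 in mutant villi and 3.47, 3.35 and 3.96 in control villi, and was not called (adjusted p = 0.0609 by limma). None of the 5 calls held against control replicate 1 alone (adjusted p from 0.0774 to 0.221). The calls of *Csf3r* and *Cxcr2* were lost without control arrays, and that of *Csf3r* also without mutant replicate 2 (adjusted p from 0.0626 to 0.124). Their summed linear signal was 640, 986 and 2622 in mutant villi, against 181, 197 and 193 in control villi. *Itgam* and *Itgb2* together deviated from the 6-array mean by 0.02, 0.14 and 0.83 in mutant villi and by -0.65, -0.20 and -0.14 in control villi. Of 7 general leukocyte markers none rose, and the macrophage marker *Adgre1* fell by 0.54. The part of neutrophils in the rise of *Itgam* was not tested. The other leukocyte alpha chains *Itgal*, *Itgax*, *Itgad* and *Itgae* were not called, with changes from -0.20 to 0.11, although *Itgax* is the direct neighbour of *Itgam* on chromosome 7, followed by *Itgad*. *Itgb7*, *Itgb2l*, *Itga9* and *Itga4*, the last with -0.12 (-0.53 to 0.29), were not called either.

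Collagens changed least among the families. None of the 11 fibrillar collagens, which form the tensile fibres of connective tissue, was called. All 11 had a positive change, from 0.02 to 0.21, on arrays whose medians were slightly higher in mutant villi. With each array centred on its median, the median change of the 44 collagens was 0.02 instead of 0.07. *Col1a1* had 8.24, 8.48 and 8.43 in mutant villi and 8.04, 8.36 and 8.26 in control villi, a change of 0.16 (-0.08 to 0.41). *Col1a2* gave 0.17 (-0.09 to 0.43) and *Col3a1* 0.21 (-0.13 to 0.56). The groups overlapped for these 3 genes of type I and type III collagen. Without control replicate 1 their changes were 0.07, 0.09 and 0.07.

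Type IV collagens, the network of the basement membrane itself, gave no call among 6 genes, with changes from -0.07 to 0.08. *Col4a1* had 7.89, 7.87 and 8.01 in mutant villi and 7.98, 8.0 and 7.84 in control villi, with overlap. Its neighbour and partner *Col4a2* had 7.56, 7.67 and 7.58 in mutant villi and 7.55, 7.54 and 7.49 in control villi. The changes were -0.02 (-0.20 to 0.17) and 0.08 (-0.09 to 0.24).

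Type VI collagen, a microfibril around cells, gave 1 call among 6 genes. *Col6a1* had 8.39, 8.51 and 8.35 in mutant villi, against 7.77, 8.19 and 8.07 in control villi. It rose by 0.41 ± 0.12 (SE, adjusted p = 0.0478 by limma), without overlap and with control replicate 1 the lowest. Without control replicate 1 the change was 0.29 (adjusted p = 0.0806), and the call was also lost without mutant replicates 1, 2 or 3 and without control replicate 3 (adjusted p from 0.0772 to 0.153). It was lost as well with array weights (0.34, adjusted p = 0.0565 by limma) and with arrays centred on their medians (0.36, adjusted p = 0.0696). Its chromosome 10 neighbour *Col6a2* and *Col6a3*, which form the same trimer with it, had 0.23 (-0.01 to 0.46) and 0.17 (-0.04 to 0.39) and were not called. The 3 type VI genes deviated on average by 0.07, 0.22 and 0.11 from the 6-array mean in mutant villi and by -0.32, 0.01 and -0.09 in control villi. The smooth muscle markers deviated by -0.24, 0.08 and 0.19 in mutant villi and by -0.29, 0.21 and 0.04 in control villi, so both were lowest in control replicate 1. The part of muscle RNA in the type VI values was not tested. *Col6a6* was higher on every mutant array with 0.27 (0.01 to 0.52, adjusted p = 0.152 by limma) and was not called. Its dimmer probe set was instead lower on every mutant array (-0.11, -0.27 to 0.05).

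**Figure D4:**
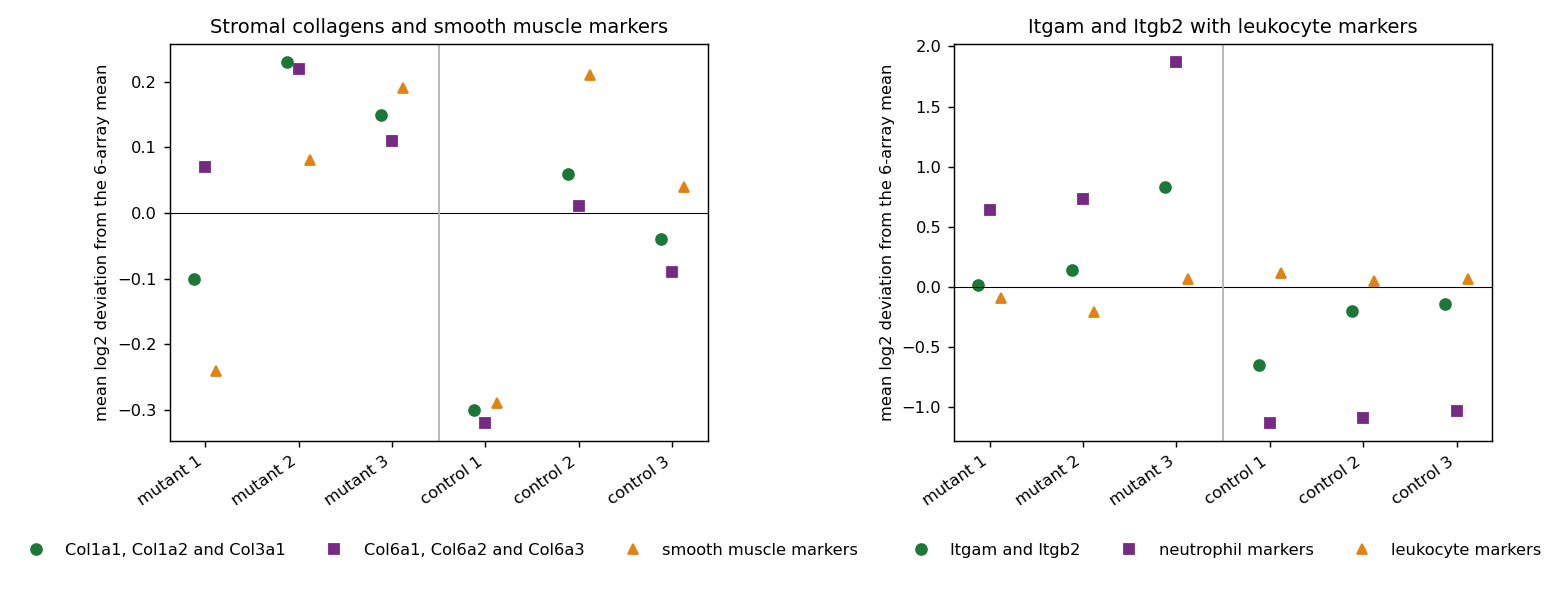
Mean log2 deviation from the 6-array mean on each array, mutant left and control right of the line, of the main fibrillar collagens, the type VI collagens and 6 smooth muscle markers (left panel), and of Itgam and Itgb2, 6 neutrophil markers and 7 leukocyte markers (right panel). Control replicate 1 is lowest in the left panel with -0.30, -0.32 and -0.29, and mutant replicate 3 is highest in the right panel for Itgam and Itgb2 (0.83) and for neutrophil markers (1.87).

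The multiplexins are basement membrane collagens that release antiangiogenic fragments, and their 2 members had changes of opposite sign. *Col18a1*, the source of endostatin, had 7.76, 7.84 and 8.01 in mutant villi, against 7.54, 7.41 and 7.48 in control villi, and rose by 0.39 ± 0.09 (SE, adjusted p = 0.0194 by limma). The groups did not overlap, but the adjusted p was 0.0552 without mutant replicate 2, 0.0724 without control replicate 2 and 0.0591 without control replicate 3. *Col15a1* had 7.34, 7.34 and 7.21 in mutant villi and 7.60, 7.57 and 7.35 in control villi, and was not called (-0.21, -0.42 to 0.00).

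*Col8a1*, a short-chain network collagen of vessel walls, had 5.49, 5.44 and 5.45 in mutant villi, against 5.71, 5.90 and 5.97 in control villi. It fell by 0.40 on the log2 scale (SE 0.09, adjusted p = 0.0167 by limma) at a signal under the median of all probe sets. Its call was lost without mutant replicate 2 (adjusted p = 0.061), without control replicate 2 (0.0628) and without control replicate 3 (0.0593). The related *Col8a2* had a change of -0.01 (-0.27 to 0.25), and *Col7a1*, which forms the anchoring fibrils below hemidesmosomes, 0.06 (-0.11 to 0.22). None of the 9 FACIT collagens, which sit on the surface of fibrils, was called, the largest change being 0.20 (-0.27 to 0.67) for *Col14a1*. None of the 4 transmembrane collagens was called, among them *Col17a1*, the hemidesmosomal one. *Col26a1* was higher on every mutant array with a change of 0.23 (0.04 to 0.41, adjusted p = 0.102) and was not called.

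Other genes of the basement membrane and of adhesion were examined as lists. Over all genes 9.39% rose and 10.1% fell by the same test, to be set beside the share of each list. Of 11 other basement membrane genes 3 rose and 2 fell (27.3% and 18.2%), with a median change of 0.11 beside 0.00 over all genes. *Egfl6*, a basement membrane ligand of the *Itga8* integrin, had 5.13, 5.39 and 5.14 in mutant villi, against 6.95, 6.97 and 7.01 in control villi, and fell by 1.76 on the log2 scale (adjusted p = 4.06e-05 by limma). This was on the same arrays on which *Itga8* fell, and all mutant arrays were lower. *Nid2*, a nidogen that bridges laminin and type IV collagen, fell by 0.88, while its relative *Nid1* rose by 0.42. *Agrn*, the laminin-binding proteoglycan agrin, rose by 0.69, and *Smoc2* also rose. *Npnt*, nephronectin, another ligand of the *Itga8* integrin, was not called (0.50, adjusted p = 0.081), nor was the major proteoglycan *Hspg2*. The call of *Nid1* was lost without mutant replicate 1 or control replicate 3 (adjusted p 0.0512 and 0.0551), and that of *Smoc2* without mutant replicate 2 or any control array (0.0636 to 0.0707).

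Of 10 hemidesmosome and other matrix receptor genes 4 rose and 2 fell (40.0% and 20.0%, median 0.17). *Cd44*, the hyaluronan receptor, had 8.58, 8.55 and 8.55 in mutant villi, against 6.63, 6.83 and 6.88 in control villi, a change of 1.78 (3.43-fold, adjusted p = 3.14e-05 by limma). The mutant arrays were nearly equal and far above the control arrays. *Sdc1*, an epithelial heparan sulfate proteoglycan, rose by 0.84, and so did the hemidesmosomal plakin *Plec* and the laminin-integrin partner *Cd151*, by 0.52 and 0.34. *Dst*, another plakin gene, fell by 0.95, and the laminin receptor *Dag1* fell by 0.31. Leaving out single arrays ended only the call of *Dag1* in this list, without any single array other than mutant replicate 3 (adjusted p from 0.059 to 0.0806).

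Of 13 integrin adaptors 2 rose and 2 fell (15.4% each, median 0.04). *Fermt1*, the epithelial kindlin that activates integrins through their beta tails, had 9.57, 9.38 and 9.55 in mutant villi, against 10.88, 10.47 and 10.54 in control villi. All mutant arrays were lower, with a change of -1.13 (adjusted p = 7.18e-04 by limma). *Fermt2* and the talins were not called. The focal adhesion genes *Zyx* and *Vcl* rose by 0.39 and 0.32, and *Pxn* fell by 0.38. These 3 calls were lost for *Zyx* and *Vcl* without any single array other than mutant replicate 3 (adjusted p from 0.0664 to 0.136), and for *Pxn* without mutant replicates 2 or 3 or control replicates 1 or 2 (0.0668 to 0.0882).

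Of 17 other matrix glycoproteins and proteoglycans 3 rose (17.6%) and none fell (median 0.15). *Thbs1*, a matricellular protein that activates latent TGF-beta, had 9.61, 9.52 and 10.53 in mutant villi, against 7.93, 8.10 and 8.06 in control villi, a change of 1.86 (3.62-fold, adjusted p = 0.00184 by limma), highest in mutant replicate 3. *Dcn*, the fibril-binding proteoglycan decorin, and *Fbln2* rose by 1.03 and 0.47. *Fn1*, fibronectin, was not called. Without mutant replicate 2 the adjusted p of *Fbln2* was 0.0622, and without control replicate 3 it was 0.0553.

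Of 15 genes that fold, crosslink or process collagen 1 rose and 1 fell (6.67% each, median 0.12). *Pcolce*, an enhancer of procollagen cleavage, changed by 0.26 and the lysyl hydroxylase *Plod1* by -0.52. Of 11 matrix proteases and inhibitors 2 rose and 3 fell (18.2% and 27.3%, median 0.10). *Mmp7*, the epithelial matrilysin, rose by 1.07 and *Mmp2* by 0.38. *Timp3*, a matrix-bound inhibitor, fell by 0.83, *Mmp14*, a membrane-bound collagenase, by 0.51 and *Mmp10* by 0.49. The calls of *Pcolce* and *Mmp2* were lost whichever single array was left out (adjusted p from 0.0553 to 0.142), that of *Plod1* without mutant replicate 2 (0.0658), that of *Timp3* without control replicates 2 or 3 (0.0534 and 0.0515) and that of *Mmp10* without any single array other than mutant replicate 1 (0.0632 to 0.0947). *Mmp7* and *Mmp14* kept theirs whichever single array was left out.

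Against control replicate 1 alone, 8 of the 25 called genes of these 6 lists kept their call, namely *Nid2*, *Egfl6*, *Dcn*, *Plod1*, *Mmp7*, *Fermt1*, *Sdc1* and *Cd44*. The other 17 did not, with adjusted p from 0.0552 (*Thbs1*) to 0.303 (*Zyx*) by limma, among them *Dst* (0.0771), *Mmp14* (0.0921), *Agrn* (0.119), *Plec* (0.122) and *Timp3* (0.221). Of the markers of cell types, *Krt8*, *Krt20*, *Pdgfra*, *Emcn*, *Gp9* and the glial *S100b* kept their call against that array, and *Tek* (0.131) and the other called markers did not.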

How the data were processed

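The submitters labelled 100 ng of total RNA per sample with biotin and hybridised 1 Affymetrix whole-transcript array each. The values the authors deposited are normalized log2 signals per probe set. Background correction, summarisation and normalization are not given in the sources used. Genes were named from the platform annotation (21789 of 30177 probe sets with 1 symbol), and all 81 member symbols were unchanged in RefSeq. Mutant and control arrays were compared with lmFit and eBayes of limma 3.58.1 in R 4.3.3 (prior degrees of freedom 3.92) on all probe sets, without covariates, and p-values were adjusted by Benjamini-Hochberg over all probe sets. The script was tested on simulated data. Tables and plots used Python 3.11.15, pandas 2.3.3 and matplotlib 3.10.9. Precision is limited by having 3 arrays per group, for which the smallest two-sided p of an exact permutation test is 0.1.

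Members and lists were chosen with earlier results of these data known. Genes were named by a rule: called members with the largest changes (up to 12 each way), in each role the 2 with the highest mean and the 1 with the largest change, the chains of epithelial laminins, type IV and main fibrillar collagens and epithelial integrins, *Trpm7*, and up to 3 called genes per list. *Itgb2*, *Col6a3* and the other genes named were chosen after their values were seen. Alternatives were another variance model, array weights, a replicate block, other scalings, an offset of 32, a filter on dim probe sets, other probe set choices, a 2-fold threshold and leaving out each array. Control replicate 1 as the sole control was added after the data were seen. Apart from choosing probe sets and genes, marking dim ones and summing marker lists, signals of different probe sets were not compared as levels. The summed linear signals are weighted towards the brightest probe sets of a list. A gene that the rule selects is left out here.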

Additional observations from a re-analysis of the deposited data

How the results depend on the processing

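The count of members that rose was 11 and of those that fell 5. Leaving out 1 array at a time gave 8 to 10 rises and 3 to 6 falls, the 3 falls without mutant replicate 2. Against control replicate 1 alone, whose spread is assumed to be that of the mutant group, 5 rose (4 of the 11) and 1 fell (*Lama3*), and *Lama5* was called as well. Requiring a 2-fold change left 0 and 0. In all other fits, 8 of the 11 rises and 3 of the 5 falls kept their call wherever they were tested, and *Col6a1*, *Col18a1*, *Itgam*, *Col8a1* and *Lama4* did not. The same replicate number in both groups does not stand for a shared animal in the labels, and deviations of same-numbered arrays correlated by 0.174, 0.039 and 0.119. With the replicate block 12 members rose, among them all 11 and *Itgb2* (adjusted p = 0.0331 by limma), and 5 fell.

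Some uncalled changes turned their sign. *Col8a2* was 0.02 with array weights, and *Itgad* was 0.03 as the mean over its probe sets and 0.11 with the dimmer one. *Col6a6* was -0.11 with its dimmer probe set. Against control replicate 1 alone *Col25a1* was -0.02, *Col28a1* -0.06 and *Itga4* 0.19. Leaving out single arrays gave -0.07 to 0.01 for *Col4a1*, -0.11 to 0.10 for *Col8a2*, -0.03 to 0.21 for *Col9a2*, -0.02 to 0.36 for *Col14a1*, -0.06 to 0.02 for *Col13a1*, -0.07 to 0.04 for *Itga3*, -0.28 to 0.02 for *Itga4* and -0.04 to 0.01 for *Itga9*. The cause was not tested.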
